A study of Mus musculus with 12 samples.

Results

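A group of itch-related keratinocyte mediators and channels was followed in mouse skin as 7 genes chosen by name, Artn, Sema3a, Edn1, Trpv3, Trpv4, F2rl1 and Ctss. Which cells of the skin made their RNA was not measured. All 7 were among the 24532 genes of the deposited tables, and all 7 passed the filter on low counts that left 16466 genes tested. Skin RNA was sequenced from 12 libraries in 4 groups of 3. The groups were specific-pathogen-free (SPF) mice treated with ethanol, the vehicle, SPF mice treated with MC903, germ-free (GF) mice treated with ethanol, and GF mice treated with MC903. MC903 (calcipotriol) is a vitamin D analogue used on mouse skin as a model of atopic dermatitis. The labels give its use as 5 times daily, which leaves the schedule unclear, and give no dose, age or sex. No group carries a transgene or deletion according to the labels. They give the strain as C57BL/6 for 9 libraries and as C57BL/7, C57BL/8 or C57BL/9 for the other 3, all from GF skin (MC903 replicate 4, ethanol replicate 5 and MC903 replicate 5). Whether the 3 libraries of a group stand for 3 mice is not said in the labels; if they do not, the p-values reflect technical spread alone. In whole skin, fewer cells of a type and less RNA per cell cannot be told apart.

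Keratinocytes and the sensory nerve endings of the skin exchange signals. Artemin, encoded by Artn, is a growth factor of the GDNF family that acts through the receptors GFRα3 and RET on sensory neurons, and semaphorin 3A, encoded by Sema3a, repels growing nerve fibres through neuropilin 1 and plexin A receptors. Endothelin 1, encoded by Edn1, is a peptide that evokes itch through endothelin receptors. TRPV3 and TRPV4 are cation channels of keratinocytes that open with warmth. PAR2, encoded by F2rl1, is a receptor switched on when proteases cut it, and cathepsin S, encoded by Ctss, is a cysteine protease able to cut it. In atopic skin, raised artemin, lowered semaphorin 3A and active PAR2 are known features linked to itch.

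Library totals ran from 36358294 to 48225425 counts. The labelled tissue held its defining markers: all 7 basal keratinocyte markers had counts in every library, and their sum rose from 11431 to 12043 CPM, the counts scaled to an equal library size, in SPF ethanol skin to 28914 to 32928 CPM in SPF MC903 skin. Of 13 neuronal markers, 5 had counts in every library. MC903 shifted much of the transcriptome, so scaling matters here. The CPM values use library sizes scaled by the trimmed mean of M-values (TMM), with factors of 1.16 to 1.25 in ethanol and 0.806 to 0.836 in MC903 libraries. With TMM the median log2 change of all genes tested was -0.10 in SPF and -0.07 in GF skin, against -0.68 and -0.58 on library totals, and the share of called genes that were higher was 47.4% and 48.8%, against 23.6% and 22.4%.

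The 7 genes did not move together after MC903. Artn rose, while Sema3a, Edn1 and F2rl1 fell, in both housings. Trpv3 fell in GF skin and Trpv4 passed in neither housing. Ctss rose slightly in GF skin. In SPF skin 4 of the 7 genes passed an adjusted p of 0.05 (1 higher, 3 lower), beside 73.8% of all genes tested (35% higher, 38.8% lower). In GF skin 6 of 7 passed (2 higher, 4 lower), beside 68.5% of all genes (33.4% higher, 35.1% lower). Both shares lie near the background, so the counts themselves set these genes apart in neither housing. The shares of all genes that rose or fell are likewise the background for the counts of listed genes and markers below. The difference between the responses, GF minus SPF, passed for 2 genes, Trpv3 and F2rl1, beside 17% of all genes (7.76% higher, 9.26% lower). Between housings, 1 gene passed with ethanol, beside 22% of all genes (11.6% higher, 10.3% lower), and 4 passed with MC903, beside 41.7% of all genes (20.8% higher, 20.9% lower). These comparisons share libraries: the responses share theirs with the housing comparisons and with the difference, so they are not independent of each other. The median log2 change of the 7 genes was -0.34 in SPF and -0.95 in GF skin. Ethanol and MC903 libraries did not overlap in CPM for 76.7% of all genes tested in SPF skin and 74% in GF skin. Between housings the libraries did not overlap for 43.9% of all genes tested with ethanol and 50.6% with MC903.

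**Figure D1:**
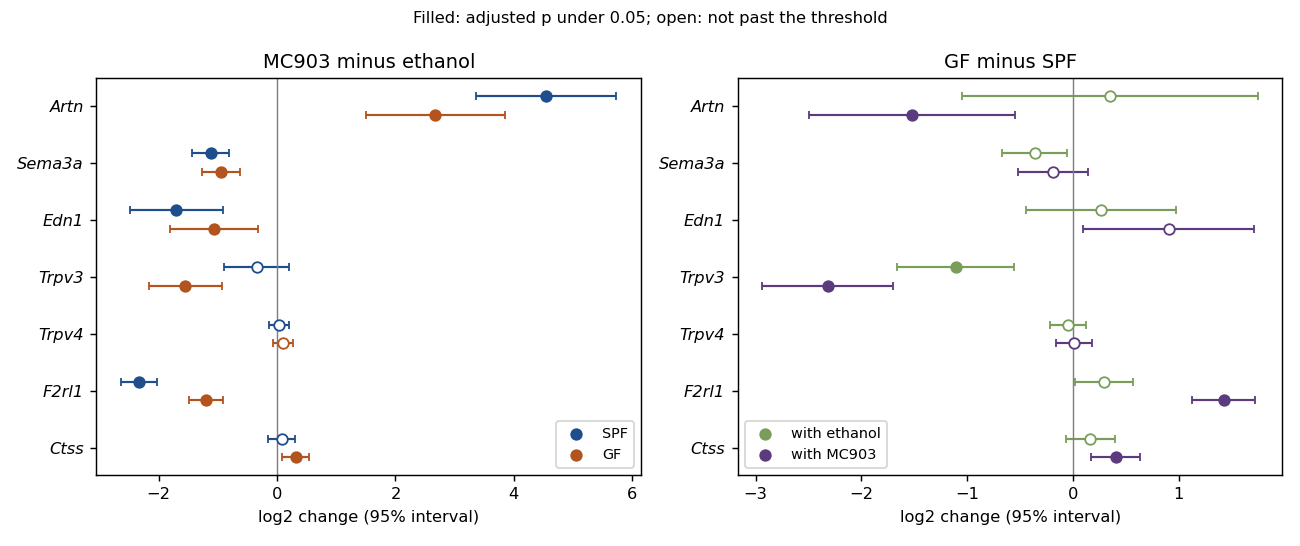
Log2 change (horizontal axis) of each of the 7 genes (rows) after MC903 in SPF and GF skin (left) and of GF minus SPF with ethanol and with MC903 (right). Points are estimates of the quasi-likelihood fit and bars their 95% intervals; Artn lies farthest to the right on the left side and Trpv3 farthest to the left on the right side.

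For 6 of the 7 genes RefSeq gave a promoter window of 300 bases on GRCm38.p6, 250 before and 50 after 1 transcription start. Windows were searched on both strands for the AP-1 motif TGANTCA, the GATA motif AGATAA and the E-box CACGTG. They were also searched for the interferon response motif, written as 2 copies of GAAA with any 2 bases between them, and for the vitamin D receptor motif, written as 2 copies of AGGTCA, or 2 of AGTTCA, with any 3 bases between them. The windows of Artn, Sema3a and Trpv4 held none of them, and those of Edn1, Trpv3 and Ctss held 5 matches that did not overlap. The windows of Artn and Sema3a lie inside the annotated genes, so the sequence before these genes was not searched. The stretches before these 3 genes, where 4 of the matches lie, are shown up to the annotated gene, 5′ to 3′ on the plus strand with matches in capitals, for chr13:42301226-42301475, chr11:73267270-73267488 and chr3:95526536-95526785.
Edn1: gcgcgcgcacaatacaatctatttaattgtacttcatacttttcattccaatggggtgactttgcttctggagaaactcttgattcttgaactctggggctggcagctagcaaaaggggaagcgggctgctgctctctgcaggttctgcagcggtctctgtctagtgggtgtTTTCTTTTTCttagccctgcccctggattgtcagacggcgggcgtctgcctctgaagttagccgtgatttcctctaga
Trpv3: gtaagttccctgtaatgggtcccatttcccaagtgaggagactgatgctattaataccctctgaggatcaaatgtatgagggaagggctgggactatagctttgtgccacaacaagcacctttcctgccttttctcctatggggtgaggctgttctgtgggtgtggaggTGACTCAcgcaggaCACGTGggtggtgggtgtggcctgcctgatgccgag
Ctss: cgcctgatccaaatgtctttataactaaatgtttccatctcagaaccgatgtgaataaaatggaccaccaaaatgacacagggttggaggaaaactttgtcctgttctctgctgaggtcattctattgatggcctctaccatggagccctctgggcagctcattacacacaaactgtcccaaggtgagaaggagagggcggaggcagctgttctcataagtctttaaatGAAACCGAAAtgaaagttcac
The Edn1 stretch holds an interferon response match on the minus strand that begins 78 bases before the start, and a GATA match on the minus strand, not shown, begins 9 bases after it. In the Trpv3 stretch the AP-1 match begins 81 bases and the E-box 67 bases before the start. That start lies inside the annotated gene, past the end of the stretch shown. The Ctss match to the interferon response motif begins 21 bases before the start. Among all 32851 windows of this length, 7.81% held the AP-1 motif, 11.2% GATA, 7.15% the E-box and 3.44% the interferon response motif. The vitamin D receptor repeat of AGGTCA was found in 2 windows and that of AGTTCA in 0, none of them from these genes. A match is a description of the letters only, and no match says only that these letters are not in the window.

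Artn, the gene of the growth factor artemin, was nearly silent in ethanol skin and rose after MC903 in both housings. Artn (gene 11876) lies on chromosome 4 from 117925908 to 117930795 on the minus strand of GRCm38.p6, with up to 6 exons. In SPF skin it measured 0.266, 0.0412 and 0.424 CPM with ethanol (14, 2 and 23 counts) and 6.52, 5.17 and 5.92 CPM with MC903 (261, 201 and 180 counts). In the GF libraries Artn measured 0.361, 0.528 and 0.063 CPM with ethanol (18, 25 and 3 counts) and 2.61, 1.61 and 1.89 CPM with MC903 (92, 58 and 66 counts). Every MC903 library lay above every ethanol library, and every SPF MC903 library lay above every GF MC903 library. The rise was 23.4-fold in SPF skin (log2 change 4.55, SE 0.54, 95% interval 3.36 to 5.73, adjusted p = 7.7e-06, n = 3 per group), larger than that of all but 1.12% of genes tested. In GF skin it was 6.37-fold (2.67, SE 0.54, interval 1.50 to 3.85, adjusted p = 0.00077). With MC903, Artn was 2.88-fold lower in GF than in SPF skin (-1.53, SE 0.45, interval -2.50 to -0.55, adjusted p = 0.016), and with ethanol the difference was 0.35 (interval -1.05 to 1.75, adjusted p = 0.73). The difference between the responses was -1.88 (interval -3.58 to -0.17) and did not pass (adjusted p = 0.13).
Low counts with ethanol limit these values. Without SPF ethanol replicate 3 the SPF change was 5.20; the call between housings with MC903 was lost without GF MC903 replicate 4 (adjusted p = 0.053) or 5 (0.05), within a range of 0.0012 to 0.053; and the difference between responses ran from -2.53 to -1.31, passing with DESeq2 (adjusted p = 0.035) and without GF ethanol replicate 5 (0.039), within a range of 0.035 to 0.37.

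Of the artemin receptor genes, Ret rose in SPF skin and Gfra3 passed in neither housing. Gfra3, the artemin receptor, measured 2.49 ± 0.144 CPM (SD, n = 3) with ethanol and 2.46 ± 0.530 CPM with MC903 in SPF skin, a log2 change of -0.01 (adjusted p = 0.97), and its change in GF skin was -0.09 (adjusted p = 0.73). Ret, the signalling partner, rose by 0.69 in SPF skin (adjusted p = 0.0013), with 0.36 in GF skin (adjusted p = 0.055). Pspn, another GDNF family ligand, rose by 3.87 in SPF (adjusted p = 1.4e-06) and 2.66 in GF skin (adjusted p = 5.9e-05). Ntrk3, the gene of a receptor of another growth factor, fell by 1.33 and 1.70.

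Sema3a, the repellent of nerve fibres, fell about equally in both housings. The gene (20346) lies on chromosome 5 from 13124822 to 13603485 on the plus strand, with up to 18 exons. In SPF skin it measured 9.72, 9.03 and 10.1 CPM with ethanol and 4.67, 3.78 and 4.80 CPM with MC903. The GF values were 7.92, 6.36 and 8.19 CPM with ethanol and 3.21, 4.42 and 3.98 CPM with MC903. No MC903 library reached the lowest ethanol library of its housing. The fall was 2.18-fold in SPF (log2 change -1.12, SE 0.15, interval -1.44 to -0.80, adjusted p = 1.7e-05) and 1.93-fold in GF skin (-0.95, SE 0.15, interval -1.27 to -0.63, adjusted p = 9.8e-05). The responses differed by 0.17 (interval -0.28 to 0.62, adjusted p = 0.63). Between housings the difference was -0.36 with ethanol (interval -0.67 to -0.05, adjusted p = 0.087; 0.041 with limma voom) and -0.19 with MC903 (adjusted p = 0.35). With the trend over gene length removed the fall in SPF skin was -0.54 (adjusted p = 0.0017).

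Of 9 other secreted class 3 semaphorins and netrins, 5 fell and 1 rose in SPF skin (median -0.62, against -0.10 for all genes), and 6 fell and 1 rose in GF skin (median -0.74, against -0.07), beside 38.8% and 35.1% of all genes that fell. The gene that rose was Sema3e, a guidance cue of vessels and nerves, by 3.15 in SPF (adjusted p = 1.2e-09) and 2.10 in GF skin (adjusted p = 5.7e-08), a difference of -1.05 (adjusted p = 0.0024). Sema3d fell by 3.57 in SPF (adjusted p = 2.9e-10) and by 2.23 in GF skin, and Ntn4, encoding a netrin of basement membranes, by 1.90 and 2.27. Of 7 receptor genes 4 fell in SPF and 5 in GF skin, beside 38.8% and 35.1% of all genes, and 0 rose in either. Nrp1, the semaphorin 3A coreceptor, fell by 0.82 in each housing (adjusted p = 9.7e-07 in SPF, 1.5e-06 in GF skin), from 34.2 ± 3.04 to 19.4 ± 0.677 CPM in SPF skin. Plxna4, a signalling receptor of the same complex, fell by 1.51 in SPF (adjusted p = 1.6e-06) and by 0.85 in GF skin (adjusted p = 0.00029), and Plxna1 by 0.71 and 0.49. Plxna2 changed by 0.14 and 0.05 without passing, and Plxna3 by -0.08 in SPF skin (adjusted p = 0.6) and -0.39 in GF skin (adjusted p = 0.024). Of 11 Schwann cell markers 10 fell in SPF and 11 in GF skin; their sum went from 728 to 838 CPM down to 435 to 501 CPM in SPF skin and from 854 to 882 CPM down to 478 to 520 CPM in GF skin, and their part in the results on Artn, Sema3a and their receptors was not tested. All 7 fibroblast markers fell in each housing, with sums of 10038 to 11486 CPM down to 5182 to 6606 CPM in SPF skin and of 8021 to 9707 CPM down to 4820.1 to 6102 CPM in GF skin; their part was not tested either. The sum of the 13 neuronal markers went from 22.9 to 25.8 CPM up to 408 to 486 CPM in SPF skin. In GF skin it went from 23.2 to 28.6 CPM up to 216 to 238 CPM. Only 1 of 7 tested rose in each housing, Tubb3, a tubulin of neurons, by 5.29 and 4.86, while 1 fell and 5 did not pass. The median of the 7 was -0.09 in SPF and 0.05 in GF skin. The rise of the sum was thus not shared by these markers as a set.

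Edn1, the itch peptide, fell in both housings and its libraries were widely spread. The gene (13614) lies on chromosome 13 from 42301476 to 42307990 on the plus strand, with up to 5 exons. Its exons overlap the antisense gene Gm47118 in GENCODE, and reads of the pair cannot be told apart here. In SPF skin Edn1 measured 2.37, 5.24 and 4.06 CPM with ethanol and 0.624, 1.36 and 1.64 CPM with MC903. In the GF groups Edn1 measured 4.51, 4.08 and 5.42 CPM with ethanol and 2.58, 1.50 and 2.63 CPM with MC903. Groups did not overlap within either housing, while the highest SPF MC903 library lay above the lowest GF MC903 library. The fall was 3.25-fold in SPF skin (log2 change -1.70, SE 0.36, interval -2.49 to -0.91, adjusted p = 0.00096) and 2.08-fold in GF skin (-1.06, SE 0.34, interval -1.80 to -0.32, adjusted p = 0.015). The responses differed by 0.64 (interval -0.44 to 1.72, adjusted p = 0.42). With MC903 the difference between housings was 0.90 (interval 0.09 to 1.72, adjusted p = 0.071). The GF call was lost without GF ethanol replicate 5 (adjusted p = 0.051) or GF MC903 replicate 4 (0.06), within a range of 0.0011 to 0.06. The difference with MC903 passed with DESeq2 (0.038), without SPF ethanol replicate 1 (0.047) and without GF MC903 replicate 4 (0.038), within a range of 0.038 to 0.23.

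Of 7 other genes of the endothelin system tested, out of 8 listed, 4 fell and 1 rose in SPF skin, and 3 fell and 1 rose in GF skin, near the 38.8% and 35.1% of all genes that fell. Edn3, another endothelin, fell by 1.82 and 1.53, and Mme, encoding neprilysin, a peptidase that breaks endothelins down, by 1.71 and 1.65. Ece2, an endothelin-converting enzyme and the 1 gene that rose, rose by 1.31 and 1.03. Ednra, the receptor that binds endothelin 1 with high affinity, fell by 0.55 in SPF skin (adjusted p = 0.0021) and by 0.66 in GF skin (adjusted p = 0.00068). Ednrb changed by 0.36 (adjusted p = 0.15) and -0.27 (adjusted p = 0.28). Ece1, the main converting enzyme, fell by 0.22 in SPF skin (adjusted p = 0.019) and changed by 0.17 in GF skin (adjusted p = 0.053), a difference of 0.39 (adjusted p = 0.024). Endothelial cells also make Edn1: the summed level of 11 endothelial markers went from 230 to 251 CPM down to 193 to 221 CPM in SPF skin (6 fell, 1 rose) and from 276 to 284 CPM down to 215 to 232 CPM in GF skin (8 fell, 0 rose), and their part in the result was not tested.

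**Figure D2:**
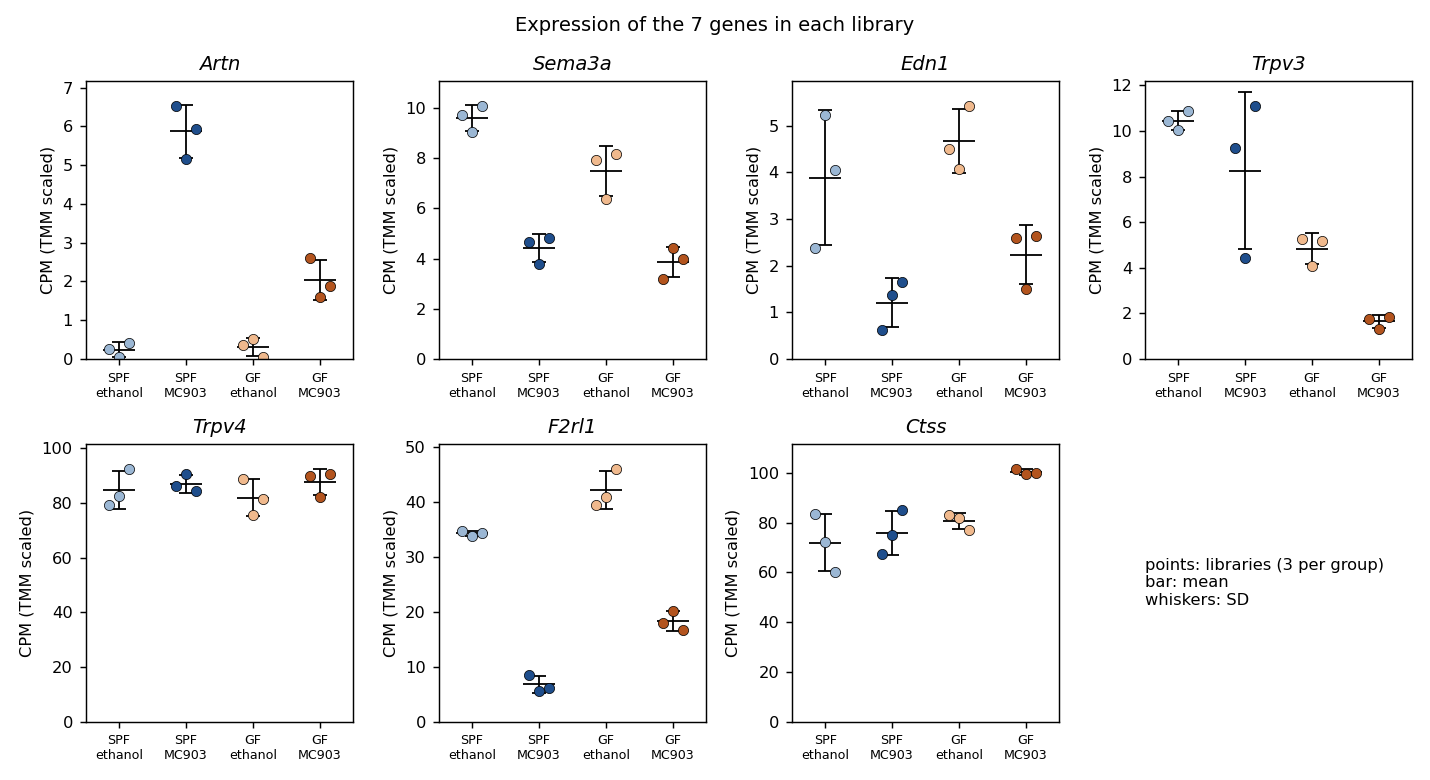
TMM-scaled CPM (vertical axis, from 0, 1 panel per gene) in the 4 groups. Points are libraries, lines group means and bars the SD over 3 libraries; F2rl1 falls with MC903 in each housing, and Trpv3 is lower in both GF groups than in SPF ethanol skin.

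The 2 channels behaved unlike each other. Trpv3 was lower in GF than in SPF skin under both treatments, and Trpv4 hardly varied. Trpv3 (gene 246788) lies on chromosome 11 from 73267489 to 73300368 on the plus strand, with up to 18 exons. In SPF skin it measured 10.4, 10.04 and 10.9 CPM with ethanol and 9.26, 4.45 and 11.1 CPM with MC903. In GF skin it measured 5.27, 4.08 and 5.18 CPM with ethanol and 1.76, 1.33 and 1.86 CPM with MC903. SPF MC903 replicate 2 lay far below its 2 fellows, and all 3 GF MC903 libraries lay below every other library.
With ethanol Trpv3 was 2.16-fold lower in GF skin (log2 difference -1.11, SE 0.25, interval -1.66 to -0.56, adjusted p = 0.011), a lower value than that of all but 1.7% of genes tested. With MC903 it was 4.98-fold lower (-2.32, SE 0.28, interval -2.94 to -1.70, adjusted p = 5.8e-05), lower than all but 0.686%. Both were the largest differences between housings among the 7 genes. The response in GF skin was a 2.93-fold fall (-1.55, SE 0.28, interval -2.17 to -0.93, adjusted p = 0.00036), and that in SPF skin was -0.34 (SE 0.25, interval -0.89 to 0.20, adjusted p = 0.23).
The difference between the responses was -1.21 (SE 0.38, interval -2.03 to -0.39, adjusted p = 0.047) and was lost in 15 of 19 alternatives, among them the removal of any 1 library other than SPF MC903 replicate 2, within a range of 0.0013 to 0.14. The ethanol call was lost without GF ethanol replicate 4 (adjusted p = 0.057), and the SPF response passed without SPF MC903 replicate 3 (-0.61, adjusted p = 0.048) and on library totals (-0.91, adjusted p = 0.0066) and was -0.04 without SPF MC903 replicate 2 (adjusted p = 0.83).

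Trpv4 (gene 63873) lies on chromosome 5 from 114622152 to 114658435 on the minus strand, with up to 16 exons. In SPF skin it measured 79.2, 82.5 and 92.4 CPM with ethanol and 86.3, 90.6 and 84.3 CPM with MC903. GF skin gave 88.8, 75.5 and 81.6 CPM with ethanol and 89.97, 82.4 and 90.8 CPM with MC903. All 4 groups overlapped. The log2 response was 0.04 in SPF skin (interval -0.13 to 0.21, adjusted p = 0.66) and 0.10 in GF skin (interval -0.07 to 0.27, adjusted p = 0.28), and the housing differences were -0.05 with ethanol and 0.01 with MC903 (interval -0.16 to 0.18). This flat pattern depends on the scaling: on library totals Trpv4 fell by 0.54 in SPF (adjusted p = 5.8e-05) and by 0.42 in GF skin (adjusted p = 0.00054), both less than the median fall of all genes on that scale. With the trend over gene length removed it rose by 0.19 (adjusted p = 0.036) and 0.25 (adjusted p = 0.011).

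The ratio of the 2 channels within a library does not depend on the scaling between libraries. From the deposited FPKM, a level per transcript length and library size, Trpv4 stood 5.745 to 6.42 times above Trpv3 in SPF ethanol libraries and 11.95 to 14.02 times above it in GF ethanol libraries. With MC903 it stood 7.049, 15.5 and 5.76 times above it in the 3 SPF libraries and 37.1 to 46.8 times in the GF libraries. The GF MC903 ratios lay above all others, and the SPF MC903 ratios overlapped with both ethanol groups.

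**Figure D3:**
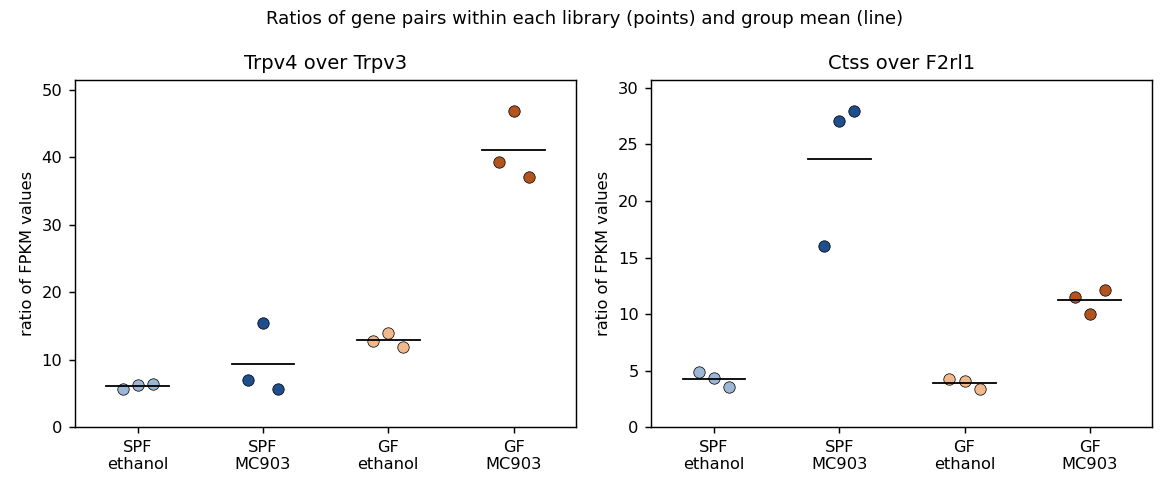
Ratio of FPKM values of Trpv4 over Trpv3 (left) and of Ctss over F2rl1 (right), from 0 on the vertical axis, by group. Points are libraries and lines group means; the first ratio is highest in GF MC903 skin (mean 41.1) and the second in SPF MC903 skin (mean 23.7).

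Of 13 TRP and mechanosensitive channel genes tested besides Trpv3 and Trpv4 (17 listed), 2 rose and 7 fell in SPF skin. In GF skin 1 rose and 8 fell, and the medians were -0.51 and -0.87. Of all genes, 35% rose and 38.8% fell in SPF skin, and 33.4% rose and 35.1% fell in GF skin. Trpv2, a channel also found in immune cells, rose by 0.44 in SPF (adjusted p = 0.0019) and 0.69 in GF skin (adjusted p = 5.9e-05). Trpv6, a calcium channel, changed by 0.07 and 0.18 without passing, and Trpv1, the capsaicin receptor of sensory neurons, stayed at or under 0.945 CPM in every library and passed in neither housing (0.64, adjusted p = 0.23, and 1.11, adjusted p = 0.1). Piezo2, the touch channel, fell by 2.23 and 1.70, and Trpm7, a channel with a kinase domain, by 1.27 and 1.78. Trpc4, with the largest fall of the list in SPF and GF skin (-3.87 and -2.51), had 27, 25 and 37 counts with ethanol and 0, 4 and 0 with MC903 in SPF skin, so that its change rests on few reads. Of 7 basal keratinocyte markers 3 rose and 3 fell in SPF skin and 2 rose and 2 fell in GF skin, while their sum went from 13346 to 15186 CPM up to 30871 to 31182 CPM in GF skin. The sum of the 6 suprabasal markers measured was 23643 to 31091 CPM in SPF and 34615 to 37361 CPM in GF MC903 skin. With ethanol it was 17265 to 19185 CPM in SPF and 18591 to 21287 CPM in GF skin. The higher GF sum with MC903 was not shared by these markers as a set. Between housings with MC903, 2 were higher in GF skin, 3 were lower and 1 did not pass, beside 20.8% and 20.9% of all genes higher and lower. The part of the basal and suprabasal markers in the results on the channels and on PAR2 was not tested.

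F2rl1, the gene of the protease receptor PAR2, fell in both housings, and fell less in GF skin. The gene (14063) lies on chromosome 13 from 95511718 to 95525240 on the minus strand, with 2 exons. In SPF skin it measured 34.7, 33.8 and 34.3 CPM with ethanol and 8.54, 5.66 and 6.18 CPM with MC903. In GF skin it measured 39.4, 40.9 and 45.9 CPM with ethanol and 17.97, 20.2 and 16.7 CPM with MC903. No 2 groups overlapped: both GF groups lay above the SPF group of the same treatment. The fall was 5.04-fold in SPF skin (log2 change -2.33, SE 0.14, interval -2.63 to -2.03, adjusted p = 1.3e-08), deeper than that of all but 3.09% of genes, and 2.30-fold in GF skin (-1.20, SE 0.13, interval -1.49 to -0.92, adjusted p = 4.4e-06). The responses differed by 1.13 (SE 0.18, interval 0.73 to 1.53, adjusted p = 0.0017). With MC903 F2rl1 was 2.68-fold higher in GF than in SPF skin (1.42, SE 0.14, interval 1.13 to 1.72, adjusted p = 9.7e-06), a difference above that of all but 2.48% of genes. With ethanol it was 0.29 (interval 0.02 to 0.57, adjusted p = 0.12), and passed with limma voom (0.033), in a fit of the 2 compared groups (0.02) and without SPF MC903 replicate 1 (0.033), within a range of 0.02 to 0.29. The other 4 calls on F2rl1 held in all alternatives, the difference between responses running from 1.01 to 1.33 (adjusted p from 1.6e-07 to 0.0065).

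Ctss, the gene of cathepsin S, changed little and had the highest FPKM of the 7 genes in every group. The gene (13040) lies on chromosome 3 from 95526786 to 95556405 on the plus strand, with up to 8 exons. In SPF skin it measured 83.4, 72.3 and 60.3 CPM with ethanol and 67.5, 75.2 and 84.97 CPM with MC903. In GF skin it measured 83.2, 81.8 and 77.1 CPM with ethanol and 101.5, 99.7 and 99.8 CPM with MC903. The 3 GF MC903 libraries lay above all others, and the other 3 groups overlapped. Ctss rose 1.24-fold in GF skin (log2 change 0.31, SE 0.11, interval 0.08 to 0.55, adjusted p = 0.02) and changed by 0.08 in SPF skin (interval -0.16 to 0.31, adjusted p = 0.54), and the responses differed by 0.24 (interval -0.09 to 0.57, adjusted p = 0.32). With MC903 it was 1.32-fold higher in GF than in SPF skin (0.40, SE 0.11, interval 0.17 to 0.64, adjusted p = 0.0096), and with ethanol the difference was 0.16 (adjusted p = 0.29).
These calls depend on the scaling: the GF response was -0.20 on library totals (adjusted p = 0.12) and -0.04 with the trend over gene length removed (adjusted p = 0.75), under which the MC903 difference was 0.17 (adjusted p = 0.23). It was also lost without GF ethanol replicate 5 (0.068), without GF MC903 replicate 1 (0.051) and with a replicate block (0.056), and on library totals Ctss fell in SPF skin by 0.50 (adjusted p = 0.0012).

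Antigen-presenting cells are a known source of cathepsin S. The sum of 12 macrophage and monocyte markers was 679 to 818 CPM in SPF and 773 to 867 CPM in GF MC903 skin, above ethanol (478 to 583 and 593 to 640 CPM), with 10 markers higher and 1 lower in SPF skin and 9 higher and 1 lower in GF skin. The sum of 11 dendritic and Langerhans cell markers was 862 to 986 CPM in SPF and 1751 to 1804 CPM in GF MC903 skin, and 844 to 1034 CPM in SPF and 1308 to 1638 CPM in GF ethanol skin. Of these 11 markers 2 rose and 4 fell after MC903 in SPF skin, and 2 rose and 3 fell in GF skin. Between housings 6 of the 11 were higher in GF skin and 0 lower, with ethanol and with MC903 alike. Of all genes, 11.6% were higher with ethanol and 20.8% with MC903. None of the macrophage, monocyte, dendritic and Langerhans cell markers was at 0 in all 12 libraries, and their part in the result on Ctss was not tested. Within libraries, Ctss FPKM stood 3.57 to 4.875 times above F2rl1 in SPF ethanol and 3.41 to 4.29 times in GF ethanol skin, and 16.1 to 27.9 times in SPF MC903 and 10.03 to 12.2 times in GF MC903 skin.

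While the PAR2 gene fell, most of the listed protease genes rose. The list of 17 serine proteases and proteases that cut PAR2 also counts F3, tissue factor, which is a cofactor and not a protease. Of the 17, 14 rose and 2 fell in SPF skin (median 1.46) and 14 rose and 1 fell in GF skin (median 0.83). Beside them, 35% and 33.4% of all genes rose. The responses differed for 6 of the 17, with the difference (GF minus SPF) positive for 1 and negative for 5. Of all genes, 17% passed this test (7.76% positive, 9.26% negative). Klk6 rose by 4.80 and 4.82 and Klk14 by 4.42 (adjusted p = 6.8e-06) and 3.92 (adjusted p = 4e-05), both kallikreins of the epidermis. Klk5, a kallikrein that activates PAR2, rose by 0.98 in SPF (adjusted p = 3.8e-07) and 1.16 in GF skin (adjusted p = 1.7e-07). Of the 3 other protease-activated receptors, F2r, the thrombin receptor, fell by 1.12 in SPF and 1.15 in GF skin, and 2 did not pass in either housing.
Of 14 other cathepsins 7 rose and 5 fell in SPF skin and 8 rose and 3 fell in GF skin. Among all genes 35% rose and 38.8% fell in SPF skin, and 33.4% rose and 35.1% fell in GF skin. Ctsl, cathepsin L, rose by 2.64 in SPF (adjusted p = 1.3e-10) and 1.67 in GF skin (adjusted p = 7.9e-09), a difference of -0.97 (adjusted p = 2e-04). Ctsb, cathepsin B, rose by 0.65 and 0.61, and Ctsh by 2.16 and 1.38. Of 10 inhibitors of these proteases 6 rose and 3 fell in SPF skin, and 5 rose and 1 fell in GF skin, beside the same shares of all genes. Cst3, encoding cystatin C, an inhibitor of cathepsin S, fell by 0.65 in SPF skin (adjusted p = 4.7e-05) and changed by -0.02 in GF skin (adjusted p = 0.87), a difference of 0.63 (adjusted p = 0.0077). Cst6 rose by 0.76 and 1.16, Cstb by 2.04 and 1.71, and Spink5, an inhibitor of kallikreins, by 1.88 and 0.73, a difference of -1.15 (adjusted p = 0.00033). Spint2, an inhibitor of membrane-bound serine proteases, rose by 0.86 and 1.28.

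The other itch genes of fixed lists give the surroundings of the 7. Of 14 other itch mediators tested (22 listed), 8 rose and 3 fell in SPF skin (median 1.26) and 8 rose and 4 fell in GF skin (median 0.81). Among all genes 35% rose and 38.8% fell in SPF skin, and 33.4% rose and 35.1% fell in GF skin. Tslp, a keratinocyte cytokine known to rise with MC903, rose by 10.06 and 8.63, and Ptgs2, the inducible prostaglandin synthase, by 8.62 and 5.60, a difference of -3.03 (adjusted p = 5e-04). Of 18 other itch receptors tested (25 listed), 6 rose and 6 fell in SPF and 6 rose and 5 fell in GF skin. These counts lie near the same shares of all genes. Mrgprb2, a mast cell receptor, fell by 2.39 and 1.94, and Il31ra, the interleukin 31 receptor, by 2.32 and 1.73. Hrh4, a histamine receptor, passed in GF skin (-2.41, adjusted p = 0.047) on 11, 10 and 10 counts with ethanol and 0, 0 and 4 with MC903.

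**Figure D4:**
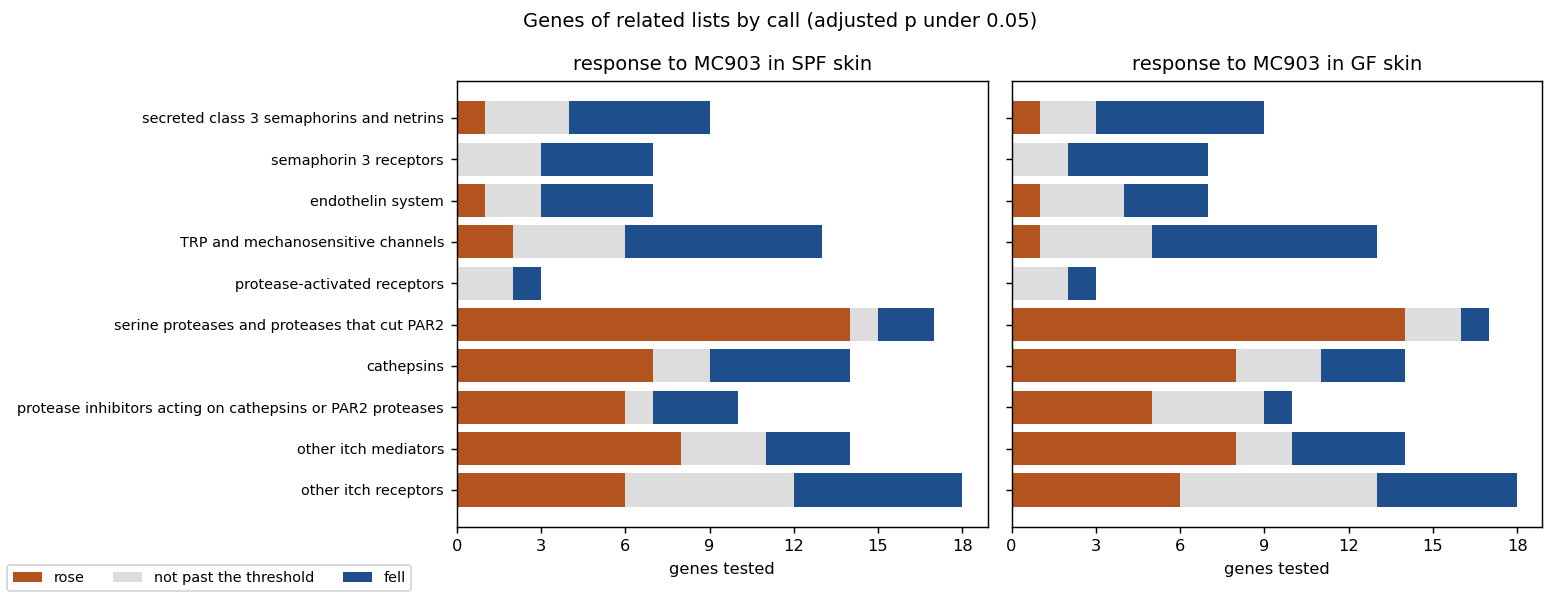
Number of genes tested (horizontal axis) in each of 10 lists that rose, fell or did not pass an adjusted p of 0.05 after MC903 in SPF (left) and GF (right) skin. In both housings the serine protease list holds 14 genes that rose, while 0 of the 7 semaphorin receptors rose.

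Levels of different genes were compared per length, by the deposited FPKM. FPKM are per total mass of each library and lack the TMM scaling, so mean FPKM of Trpv4 and Ctss were lower with MC903 in both housings, while their mean CPM were not. In SPF ethanol skin the order was Ctss (63.8 ± 10.7 FPKM, SD, n = 3), Trpv4 (31.6 ± 2.60), F2rl1 (14.97 ± 0.463), Trpv3 (5.15 ± 0.275), Edn1 (2.17 ± 0.773), Sema3a (1.71 ± 0.111) and Artn (0.130 ± 0.109). Edn1 and Sema3a overlapped there and the other neighbours did not. In SPF MC903 skin Ctss (45.2 ± 5.54 FPKM) and Trpv4 (21.8 ± 0.381) stayed first, followed by Trpv3 (2.75 ± 1.18), Artn (2.10 ± 0.340) and F2rl1 (1.99 ± 0.472), whose libraries overlapped, and by Sema3a (0.520 ± 0.0746) and Edn1 (0.452 ± 0.196), which overlapped too. Artn thus moved from the last place to the middle of the order.
In GF ethanol skin the order was Ctss (68.98 ± 3.29 FPKM), Trpv4 (29.5 ± 3.04), F2rl1 (17.7 ± 1.47), Edn1 (2.53 ± 0.392), Trpv3 (2.304 ± 0.359), Sema3a (1.27 ± 0.190) and Artn (0.146 ± 0.113), with an overlap of Edn1 and Trpv3. In GF MC903 skin it was Ctss (59.9 ± 0.548 FPKM), Trpv4 (22.02 ± 1.23), F2rl1 (5.37 ± 0.502), Edn1 (0.844 ± 0.242), Artn (0.773 ± 0.198), Trpv3 (0.544 ± 0.0923) and Sema3a (0.456 ± 0.0734), where each neighbour overlapped from Edn1 downwards. F2rl1 kept the third place in GF skin, and Trpv3 ranked sixth after MC903.

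**Figure D5:**
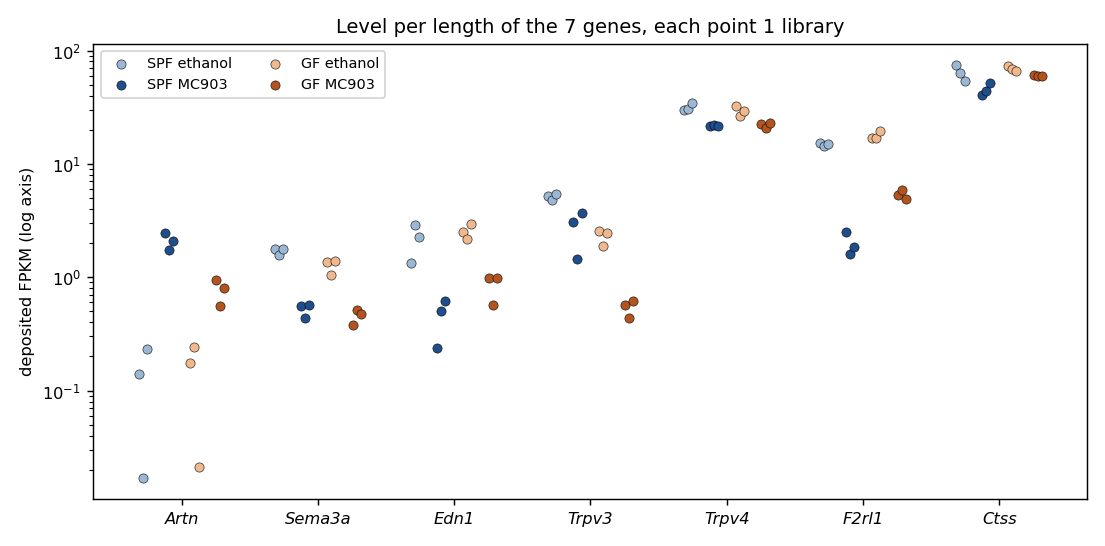
FPKM of the 7 genes (log10 vertical axis) in the 4 groups. Points are libraries, coloured by group; Ctss and Trpv4 stay at the top in every group, and Artn rises from the bottom with MC903.

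For each gene the 3 genes of most similar pattern over the 12 libraries were taken by the root mean square (RMS) difference of log2 CPM, each gene centred on its own mean. F2rl1, whose own RMS around its mean was 1.04, was nearest to Tnfrsf19 (0.124), Ackr4 (0.154) and Rasgrp1 (0.157). Artn (2.08) was nearest to Spink14 (0.437), Lipg (0.604) and Gm19510 (0.648), and Trpv3 (1.05) to Strn (0.217), Trim23 (0.267) and Rapgef5 (0.311). With ethanol, Spink14 had 6, 0 and 4 counts in SPF and 5, 5 and 0 in GF skin. Gm19510 had 4, 0 and 5 and 2, 2 and 2, so the likeness of both to Artn in ethanol libraries rests on few reads. Sema3a (0.557) was nearest to Uevld (0.0896), Kirrel (0.0904) and 9930021J03Rik (0.0934), and Ctss (0.221) to Clec4a1 (0.0796), BC029722 (0.0959) and Dram1 (0.105). Edn1 (0.88) was nearest to 5930403L14Rik (0.337), Cpt1b (0.348) and Ahrr (0.349). For Trpv4 (0.0869), nearest to Gfm2 (0.0548), Amotl1 (0.0678) and Sptan1 (0.0694), the distances were close to its own small spread.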

How the data were processed

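TruSeq RNA v2 libraries of skin RNA were read on a HiSeq4000, per the labels' protocols. HISAT2 2.1.0 and StringTie 1.3.4d, with bcl2fastq 2.20.0, Trimmomatic and the build mm10, are listed in the submitters' processing notes, in no stated order. The deposited tables give, per the file headers, a read count and an FPKM per gene and library; the counts are whole numbers and were taken as estimated counts, since StringTie is the quantifier listed, though how they were made is not given in the sources used here, and the authors' FPKM are per total library. The counts of all 12 libraries were fitted together in edgeR 4.0.16 (R 4.3.3) by group means after TMM scaling and filterByExpr (minimum count 10, minimum total 15), and tested by the quasi-likelihood test with Benjamini-Hochberg adjustment over 16466 genes at 0.05, two-sided; intervals are 95%. The totals of 36358294 to 48225425 counts left a common dispersion of 0.022. Alternatives were DESeq2 1.42.0, limma voom 3.58.1, other scalings, no filter, compared groups only, a length trend, a replicate block and leaving out each library. Gene identifiers matched RefSeq for 24462 of 24532 genes. The 7 genes and all lists were chosen with earlier results of these data known. The text names all 7, listed partners, the up to 2 listed genes with the largest called change in each response, and 3 genes of nearest pattern; Ece2 and the marker Tubb3 were added after their values were seen. Of the listed genes, 1 item withheld for evaluation, with the 2 lists that touch on it, is not reported here.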

Additional observations from a re-analysis of the deposited data

Results flagged for a closer look

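For 2 of the 7 genes the response to MC903 differed between GF and SPF skin by a test of the difference itself. F2rl1 fell less in GF skin, by a log2 difference of 1.13 (edgeR, adjusted p = 0.0017). All 3 GF MC903 libraries lay above the 3 SPF MC903 libraries, and these groups did not overlap for 50.6% of all genes tested. The GF ethanol libraries also lay above the SPF ethanol libraries. Trpv3 fell more in GF skin, by a log2 difference of -1.21 (edgeR, adjusted p = 0.047), a call that 15 of 19 alternatives lost.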

How the results depend on the processing

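Of 679 values of the 7 genes under alternative settings, 623 kept their direction and side of the threshold, 24 lost and 13 gained a call, and 19 changed sign. Of these, 14 passed the threshold neither before nor after and were at most 0.222 in size, in Trpv4, Ctss and, between housings with ethanol, Artn. The other 5 were in Trpv4 and Ctss: on library totals the SPF response of Trpv4 was -0.54 and of Ctss -0.50, and the GF response -0.42 and -0.20, since that scaling moves all genes down, and with the length trend removed the GF response of Ctss was -0.041. In SPF skin 7 of the 7 genes were called on library totals, against 4. For the difference between responses 1 gene was called, against 2, on library totals, with no filter, with limma voom and with the replicate block, and 3 with DESeq2. With ethanol 3 were called with limma voom and 2 in a fit of the compared groups, against 1, and 2140 of all genes with the length trend removed, against 3616. Leaving out 1 library gave 4 to 5 called genes of the 7 in SPF skin, 4 to 6 in GF skin, 1 to 2 for the difference, 0 to 2 with ethanol and 3 to 5 with MC903. Over all genes it gave 11536 to 12244, 10371 to 11390, 2130 to 2763, 1475 to 3981 and 5652 to 6784; the lowest count with ethanol came without GF ethanol replicate 4. The cause was not tested. For each gene the group mean of log2 CPM was subtracted, and the deviations left in ethanol and MC903 libraries were correlated across genes. Deviations of libraries of equal replicate number correlated at 0.00729, 0.0674 and 0.14 in SPF skin. In GF skin they correlated at 0.0221, -0.0225 and 0.000563. In neither housing did every library correlate best with its own number. In SPF skin all did except ethanol replicate 1, which correlated best with MC903 replicate 2 (0.0603). Some margins were small: SPF MC903 replicate 1 correlated at 0.00729 with its own number and at 0.00412 with ethanol replicate 2. In GF skin only ethanol replicate 1 correlated best with its own number (0.0221, against 0.0212 with MC903 replicate 5). With 3 libraries per group these correlations cannot decide whether equal numbers mark the same mouse. With the number as a replicate block 4 of the 7 genes were called in SPF and 5 in GF skin. Of all genes, 11950, 11072 and 2303 were called for the responses and their difference. Ctss in GF skin (0.32, adjusted p = 0.056) and the Trpv3 difference (-1.13, adjusted p = 0.05) no longer passed. The edgeR adjusted p of Edn1 went from 0.00096 to 0.00011 in SPF and from 0.015 to 0.0014 in GF skin. No paired analysis was possible between housings because SPF and GF mice are different animals. Depth limits Artn most, with 2 to 25 counts in ethanol libraries.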
